A study of Mus musculus with 6 samples.

Results

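The SLC25 genes encode the mitochondrial carriers, a family of membrane proteins that move nucleotides, phosphate, organic acids, amino acids, cofactors and metals across the inner membrane of mitochondria. Every gene symbol of the form Slc25a followed by a number was taken from the deposited count table, which gave 47 carriers among 48587 genes. The table comes from microglia, the brain's own macrophages, sorted from C57BL/6 mice at postnatal day 42, with about the same number of cells put into each library. There were 3 Lyl1 knockout (KO) libraries and 3 wild-type (WT) libraries, and strain, age and cell preparation were the same in both genotypes. Lyl1 encodes a transcription factor of blood-forming cells. The labels say neither how the knockout allele was made nor which markers the sorting gate used, and no treatment is given. The carriers were chosen by name, with earlier results of these libraries known, Slc25a32 among them. The genotype values below are thus a description.

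Carriers are built in the cytosol and inserted into the inner membrane, where most of them exchange a molecule inside the mitochondrion for another outside it. The ADP/ATP translocases pass ATP out and ADP in, and the phosphate carrier brings in the phosphate that ATP synthase needs. Other members link mitochondria to the rest of metabolism, as the citrate carrier does for lipid synthesis and the aspartate/glutamate carriers do for the transfer of reducing power.

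Library depth ran from 19205948 to 27305558 reads in KO and from 12753945 to 27378614 in WT. Lyl1 itself was at 9.03, 12.0 and 14.3 CPM in KO libraries 1 to 3, against 60.2, 55.6 and 40.0 CPM in WT libraries 1 to 3. CPM are read counts scaled to library size with TMM factors. The targeted gene was lower in every KO library and still had reads in each. Summed over 8 genes, microglia markers stood at 47188 to 51530 CPM in KO and 51195 to 54759 CPM in WT. Markers of neurons reached at most 7.84 CPM in sum, and Snap25, Gfap, Cldn5 and Cd3e had no read in any library. Other markers of the same cell types were read. Astrocyte markers summed to 170 to 258 CPM in KO and 176 to 410 CPM in WT, nearly all from Slc1a3. The endothelial marker Pecam1 had 618 to 1746 reads per library. Genes with at least 1 read numbered 13085, 14923 and 15531 in KO libraries 1 to 3 and 13045, 12827 and 15652 in WT libraries 1 to 3. KO libraries 2 and 3 and WT library 3 therefore had the most genes read. Xist was at 349 and 412 CPM in KO libraries 1 and 3 but at 0.203 CPM in KO library 2, and no WT library passed 1.41 CPM. Sex thus differs within KO, with KO library 2 like the WT libraries in Xist. Ddx3y, on the Y chromosome, had 0, 149 and 2 reads in KO and 12, 723 and 198 reads in WT. WT library 1 was low in both genes, at 1.41 CPM of Xist and 1.06 CPM of Ddx3y, so its sex is less clear. Both libraries with high Xist were KO, so sex also differs in part between the genotypes. For any carrier, sex and genotype cannot be fully told apart, and the part of sex was not tested. Slc25a5, Slc25a14, Slc25a43 and Slc25a53 lie on the X chromosome. In these sorted bulk samples fewer cells of a type and less RNA per cell cannot be told apart either. Nothing in the labels says that the libraries of a genotype came from separate animals, so the spread between them may be technical in part.

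The major carriers of these microglia were the ADP/ATP translocases Slc25a5 and Slc25a4, the oxoglutarate/malate carrier Slc25a11, the phosphate carrier Slc25a3, the glutathione carrier Slc25a39 and the less studied Slc25a45. Levels of different genes are compared here as TPM, the reads per kilobase of annotated exons scaled to 1 total in each library. These 6 held 72.6%, 74.9% and 76.0% of the TPM of the whole family in KO libraries 1 to 3 and 68.3%, 84.6% and 74.5% in WT libraries 1 to 3. The family as a whole stood at 1845, 2280 and 2019 TPM in KO and at 2626, 2206 and 2174 TPM in WT. WT library 1 was highest and the genotypes overlapped.

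**Figure D1:**
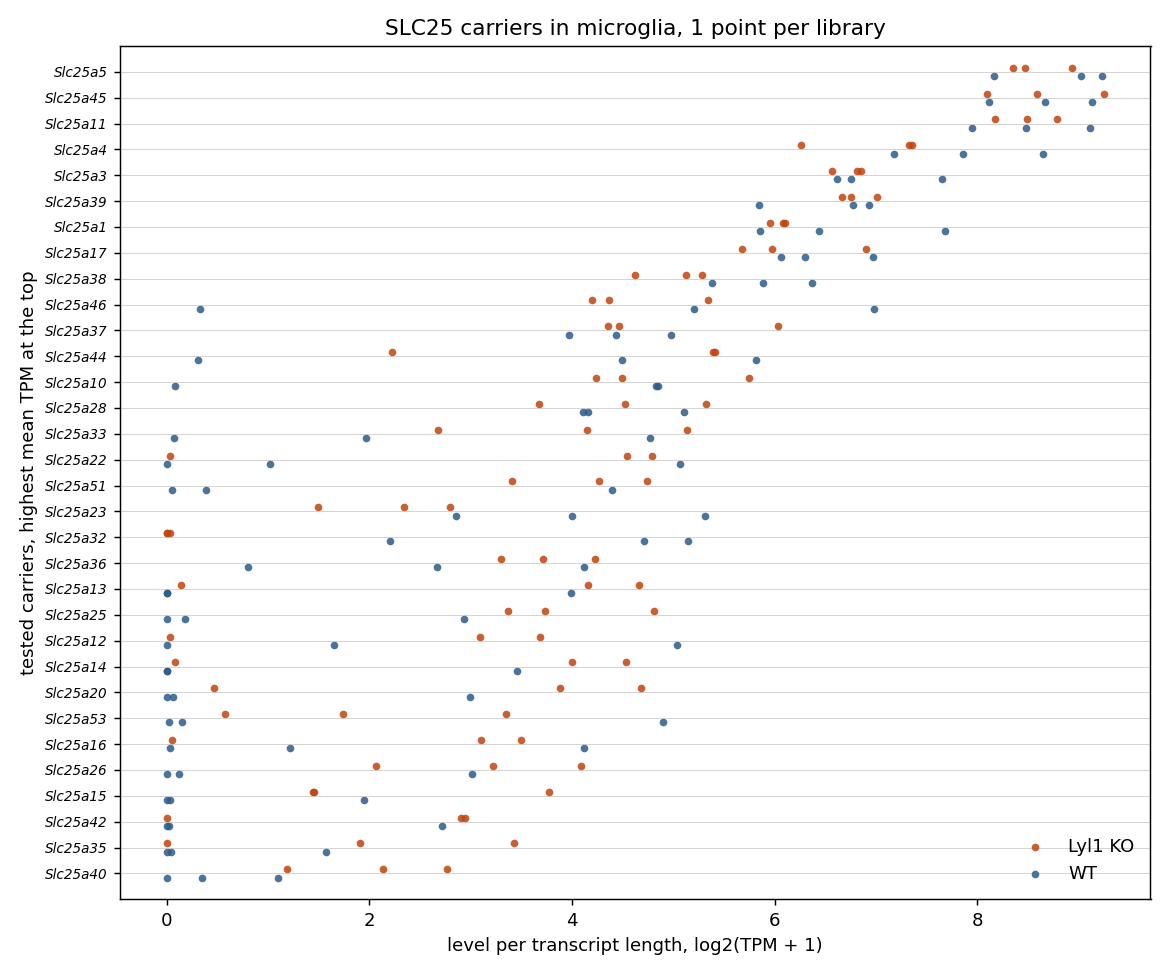
Levels of 32 tested SLC25 carriers per transcript length, as log2(TPM + 1) on the horizontal axis, with 1 point per library and carriers ordered by their mean TPM. Lyl1 KO libraries (orange) lie above WT libraries (blue) in each row. The 6 carriers at the top are at 56.5 TPM or more in every library, while lower down many carriers have libraries at or near 0.

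The translocases Slc25a4 (ANT1, ENSMUSG00000031633.4, GRCm38 chromosome 8, 46206797 to 46211284, minus strand) and Slc25a5 (ANT2, ENSMUSG00000016319.3, chromosome X, 36795651 to 36798807, plus strand) have coding sequences of 897 bases each that are 77.5% identical. Reads were 50 bases long, so the sequences are shown to let a reader see how far such a read tells them apart. Below is the 50-base stretch of the coding sequence with the fewest differences between them, bases 79 to 128 counted from the A of the start codon, from GENCODE M21 transcripts on GRCm38, with the differing bases in capitals.
Slc25a4: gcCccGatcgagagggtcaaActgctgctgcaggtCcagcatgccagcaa
Slc25a5: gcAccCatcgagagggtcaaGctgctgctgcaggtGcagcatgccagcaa
Even here the translocases differed at 4 bases, and 0 of the 848 stretches of that length were identical. Slc25a5 did share 33.8% of its 50-base words with transcripts of other genes, chiefly processed pseudogenes, and Slc25a4 shared none. The pseudogene with the most such words, Gm5560, had 14, 10 and 7 reads in KO and 13, 8 and 11 reads in WT. How the counting treated reads that fit several genes is not given in the sources used here, so the level of Slc25a5 is uncertain on this side.

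Slc25a5, the translocase of dividing and many resting cells, was at 490, 355 and 326 TPM in KO libraries 1 to 3, against 602, 287 and 521 TPM in WT libraries 1 to 3. Slc25a4, the form best known from heart and muscle, was at 75.9, 163 and 159 TPM in KO, against 402, 144 and 231 TPM in WT. ANT2 was thus the higher form in every library. The share of ANT1 in the sum of both was 13.4%, 31.4% and 32.9% in KO and 40.0%, 33.4% and 30.8% in WT, a mean of 25.9% ± 10.8 against 34.7% ± 4.78 (SD, n = 3 each). KO library 1 had the lowest share and WT library 1 the highest, and the remaining libraries lay within 30.8% to 33.4%. Slc25a31, the translocase of germ cells, had 2 reads in KO library 2 and none elsewhere.

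**Figure D2:**
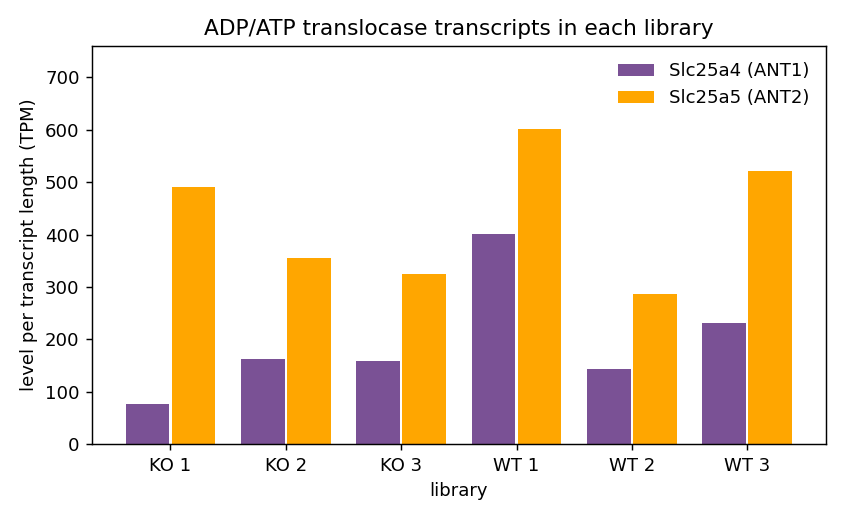
TPM of Slc25a4 (ANT1) and Slc25a5 (ANT2) in each library, KO on the left and WT on the right, with 1 bar per library and gene. ANT2 is above ANT1 in all 6 libraries, and the gap is widest in KO library 1, where ANT1 makes up 13.4% of the pair.

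Slc25a3, the phosphate carrier (chromosome 10, 91116574 to 91124059), was at 112, 94.1 and 114 TPM in KO and 97.1, 201 and 107 TPM in WT. Outside WT library 2 its levels lay close together. Slc25a45 (chromosome 19, 5877808 to 5885878) was at 274, 608 and 386 TPM in KO and at 278, 563 and 407 TPM in WT. Its lowest and highest libraries differed by more than the genotypes did, and its exons overlap no other annotated gene. Slc25a11 (chromosome 11, 70644196 to 70647479), which swaps oxoglutarate for malate in the malate-aspartate shuttle, was at 288, 359 and 442 TPM in KO and 357, 553 and 246 TPM in WT. Rnf167 overlaps 8.92% of its exon bases on the opposite strand, and without strand in the library kit those reads cannot be assigned. Slc25a39, which brings glutathione into mitochondria, was at 101, 128 and 107 TPM in KO and 56.5, 121 and 108 TPM in WT. In the order of mean level Slc25a5, Slc25a45 and Slc25a11 overlapped each other, as did Slc25a4, Slc25a3 and Slc25a39 below them. Behind these came Slc25a1, Slc25a17, Slc25a38 and Slc25a46.

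Carriers were then counted by how many libraries held at least 10 reads. All 6 libraries did so for 15 carriers, and none did for 10 carriers. The other 22 were read in some libraries and not in others. In KO libraries 1 to 3, 29, 33 and 32 carriers reached 10 reads, against 24, 19 and 31 in WT libraries 1 to 3. With KO libraries 2 and 3 and WT library 3 alone, the libraries with the most genes read, 28 carriers reached 10 reads in each, a choice made after the data were seen. After the filter on low counts 33 carriers were tested for genotype and 14 were not.

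Of the 33 tested carriers, 17 had 3 reads or fewer in some library and 100 reads or more in another, 51.5%, where 36.6% of all 10394 tested genes did. These 17 were all the tested carriers with 3 reads or fewer in any library, a floor that 39.5% of all tested genes reached in at least 1 library. Carriers at 3 reads or fewer numbered 7, 2 and 1 in KO libraries 1 to 3 and 7, 14 and 2 in WT libraries 1 to 3. Among all tested genes the shares at that floor were 11.6%, 10.8% and 1.54% in KO and 20.6%, 21.7% and 2.34% in WT. WT library 2 thus had the most carriers at the floor. The cDNA was amplified by PCR from very little RNA and molecules were not counted, so a carrier without reads in a library may still have been transcribed in the cells.

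**Figure D3:**
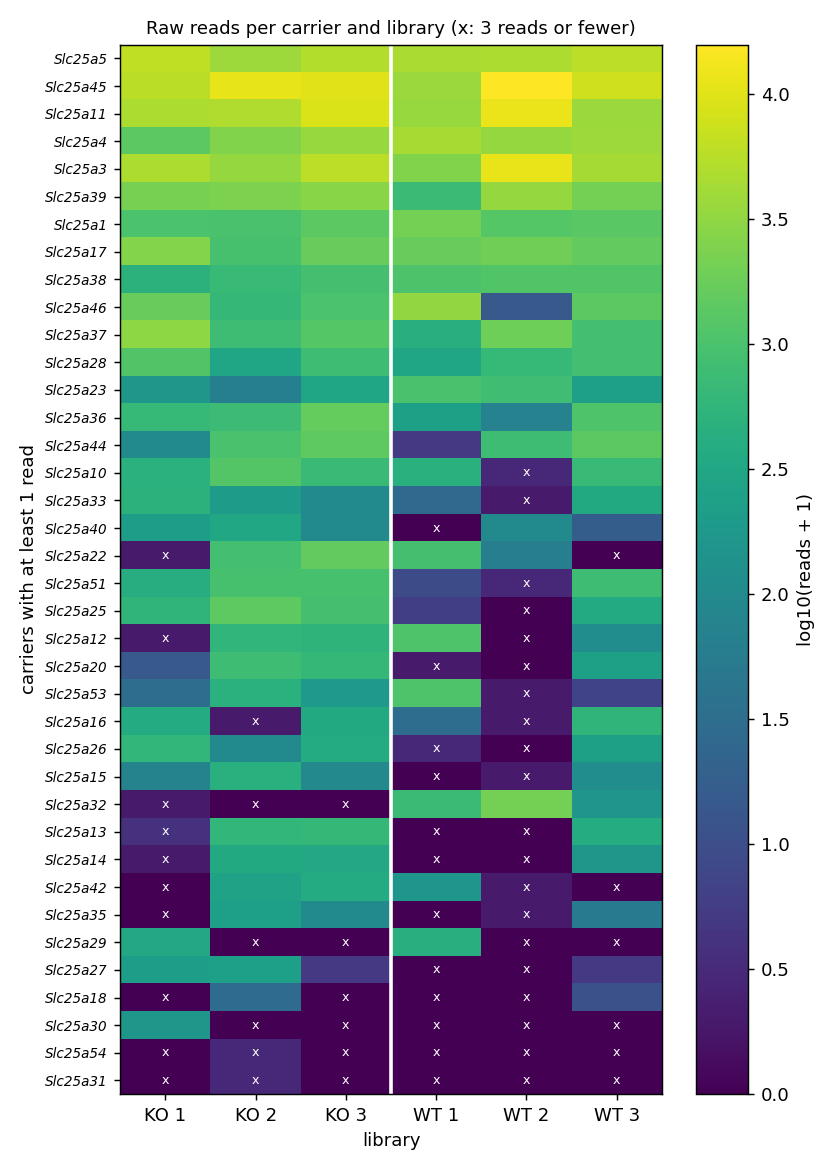
Raw reads of 38 carriers that had at least 1 read, as log10(reads + 1) on the colour scale, with carriers as rows and libraries as columns, KO on the left and WT on the right of the white line. Crosses mark 3 reads or fewer. The 14 carriers at the top reach 10 reads in all 6 libraries, and crosses are most frequent in WT library 2.

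The untested carriers were rare or read in few libraries. No reads at all came from Slc25a24 and Slc25a41 of the ATP-Mg/phosphate carriers, the oxodicarboxylate carrier Slc25a21, the ornithine carrier Slc25a2, or Slc25a34, Slc25a43, Slc25a47 and Slc25a48. With no read seen, up to 3 could have been missed, or 0.104 to 0.264 CPM depending on the library. This covers counting error only and takes each read as a separate draw. Slc25a29, a carrier of basic amino acids, had 343, 0 and 0 reads in KO and 449, 0 and 0 reads in WT. Slc25a27, the brain uncoupling protein UCP4, had 217, 229 and 4 reads in KO and 0, 0 and 4 in WT. Slc25a30, a relative of the uncoupling proteins, had 166, 0 and 0 reads in KO and none in WT. The glutamate carrier Slc25a18 had 0, 28 and 0 reads in KO and 0, 0 and 10 in WT, and Slc25a54 had 2 reads in KO library 2 alone.

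Between the genotypes, edgeR's quasi-likelihood test called 0 carriers higher and 0 lower in KO, and it called 0 of all 10394 tested genes, 0% in either direction. Each of the 33 tested carriers had adjusted p = 0.9999. At an unadjusted p under 0.05, 1 carrier was lower, Slc25a32, where 1.67% of all genes were lower and 1.16% higher. Limma-voom called none, and DESeq2 called Slc25a32 alone, where it called 0.327% of all genes higher and 0.173% lower. Fold changes pointed up for 17 tested carriers and down for 16, against 48.7% up and 51.3% down among all genes. Their median log2 fold change of 0.054 stood beside -0.029 for all genes. In CPM the genotypes did not overlap for 5 carriers that were lower and 1 that was higher in KO, against 5.19% of all genes lower and 5.97% higher. With upper-quartile scaling or library size alone Slc25a4 and Slc25a1 overlapped and Slc25a40 no longer did, which gave 3 lower and 2 higher. Of all genes 4.51% were lower and 6.47% higher without overlap under upper-quartile scaling, and 4.58% and 6.45% with library size alone. Single libraries moved these counts: 11 carriers did not overlap without KO library 1, where 7.86% of all genes were lower and 11.3% higher, and 18 without WT library 3, where 12.9% were lower and 16.6% higher. Carriers at an unadjusted p under 0.05 numbered 9 without WT library 3, where 10.5% of all genes were at that level, 3 without WT library 2, with 2.97% of all genes, and 2 without KO library 3, with 3.1%. In the fit to all libraries 2.84% of all genes were. The common biological coefficient of variation was 1.27, a wide spread between libraries of a genotype, so a difference that was not called is not shown to be absent.

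**Figure D4:**
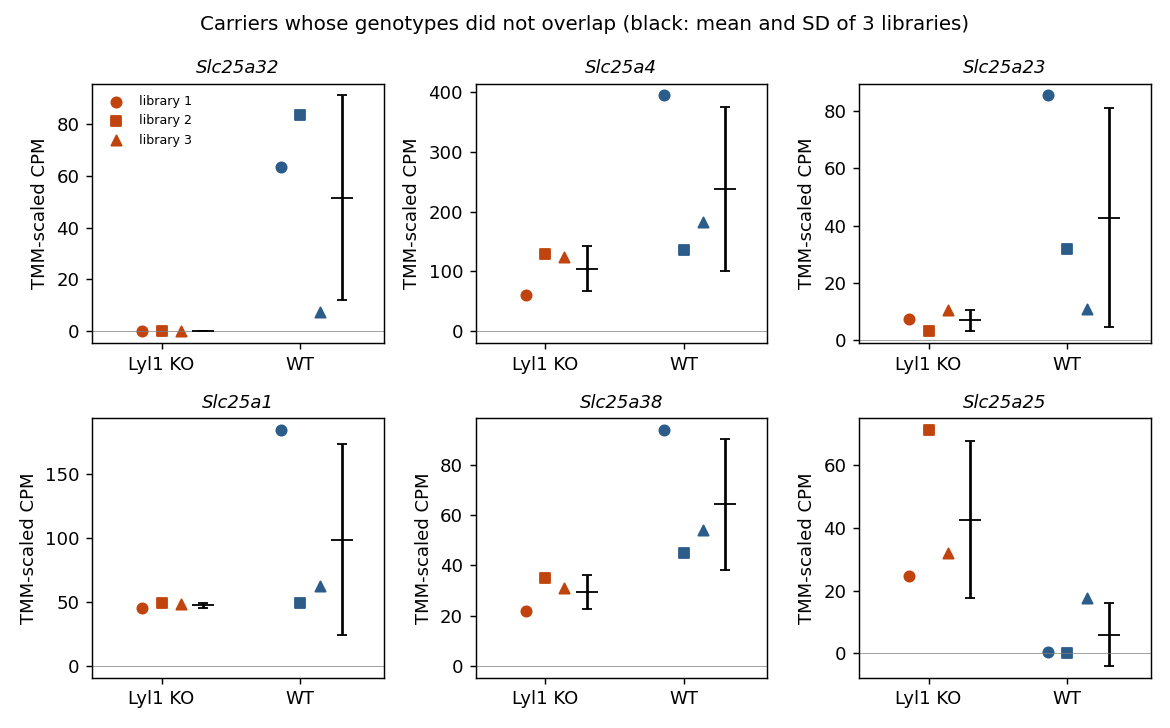
TMM-scaled CPM of the 6 carriers whose genotypes did not overlap, with Lyl1 KO left and WT right in each panel. Symbols give the library number, and black marks give the mean and SD of 3 libraries. Slc25a25 is higher in KO and the others are lower, and WT library 1 is the highest WT value for Slc25a4, Slc25a23, Slc25a1 and Slc25a38.

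Slc25a32 (chromosome 15, 39091231 to 39112716, minus strand), which brings folate into mitochondria and has also been linked to FAD, had 1, 0 and 0 reads in KO libraries 1 to 3 and 722, 2111 and 155 reads in WT libraries 1 to 3. No KO library had more than 1 read and no WT library fewer than 155. Its level was 63.6, 83.9 and 7.39 CPM in WT, so WT libraries differed widely among themselves. Over all libraries of a genotype that is 1 read in KO against 2988 in WT, a ratio of 3698 for WT over KO. Its exact 95% interval of 663 to 146113 takes each read as a separate draw. The interval leaves out copies made by PCR and the spread between libraries. In WT library 3, the WT library with the most genes read, Slc25a32 was lowest. Its log2 fold change in edgeR came to -11.3 (SE 2.23), with an unadjusted p of 0.0011 in the quasi-likelihood test. With 1 read over all KO libraries, the size of that fold change is uncertain. The DESeq2 call had an adjusted p of 8.43e-08, against adjusted p = 0.9999 in edgeR, and edgeR's adjusted p ran from 0.217 to 1 over its alternatives. Dcaf13, which starts 148 bases away on the opposite strand, was at 78.1, 59.2 and 75.7 CPM in KO and at 20.9, 184 and 52.5 CPM in WT. This neighbouring gene, chosen after its values were seen, was read in all 6 libraries, and its genotypes overlapped. Its relation to the level of Slc25a32 was not tested.

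Other genes of folate use were set beside it, from lists chosen with earlier results of these data known. Of 12 mitochondrial folate and one-carbon enzymes 9 were tested, of which 4 were higher and 5 lower in KO, with a median log2 fold change of -0.73, and edgeR called none. Mthfd2, the dehydrogenase and cyclohydrolase that takes up carbon units inside mitochondria, was at 26.0, 23.1 and 40.1 CPM in KO and 93.9, 70.4 and 64.4 CPM in WT. Its genotypes did not overlap, and its log2 fold change came to -1.36 (SE 0.71). Gcsh, a subunit of the glycine cleavage system, was at 0.220, 35.0 and 23.4 CPM in KO and 47.2, 119 and 28.9 CPM in WT. Of 15 cytosolic folate enzymes and transporters 10 were tested, with 5 higher and 5 lower and a median of 0.015. Among them Gart, an enzyme of purine synthesis, was at 132, 6.86 and 48.4 CPM in KO and at 10.6, 18.5 and 18.5 CPM in WT. Its genotypes overlapped, and its log2 fold change came to 1.98 (SE 1.19).

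Among the carriers of adenine nucleotides and phosphate, 4 of 5 tested members were lower and 1 was higher in KO. Slc25a4 was at 60.5, 128 and 124 CPM in KO, against 394, 136 and 183 CPM in WT, with means of 104 ± 38.04 and 238 ± 138 CPM (SD, n = 3 each). In CPM the genotypes did not overlap, by a narrow gap between KO library 2 and WT library 2. By TPM they did, with WT library 2 at 144 against 163 and 159 in KO libraries 2 and 3. On the log2 scale the fold change came to -1.19 (SE 0.52), and without WT library 1 it was -0.60. Slc25a5 was at 273, 196 and 178 CPM in KO and 413, 189 and 288 CPM in WT, with a log2 fold change of -0.46 and a standard error of 0.37. The genotypes overlapped, and without WT library 1 the fold change was -0.14. Slc25a5 lies on the X chromosome, and the part of sex in its level was not tested. Slc25a3 was at 210, 175 and 211 CPM in KO and 225, 447 and 200 CPM in WT, with a log2 fold change of -0.55 and a standard error of 0.38, and -0.072 without WT library 2.

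The calcium-regulated ATP-Mg/phosphate carriers, which load mitochondria with adenine nucleotides when cytosolic calcium rises, lay in opposite directions. Slc25a23 (chromosome 17, 57043711 to 57059863) was at 7.26, 3.20 and 10.5 CPM in KO and 85.3, 31.9 and 11.1 CPM in WT. KO library 3 and WT library 3 nearly met. Its log2 fold change came to -2.61 (SE 1.33), and -1.61 without WT library 1. Slc25a25 (chromosome 2, 32414487 to 32451445) was at 24.8, 71.2 and 31.96 CPM in KO and 0.441, 0 and 17.6 CPM in WT. The WT libraries without reads or nearly so were those with the fewest genes read, and WT library 3 came close to KO library 1. Its log2 fold change came to 2.83 (SE 2.19). It was 7.65 without WT library 3, 6.05 in limma-voom and 5.85 with replicate numbers as a block, none of them called. Naif1 overlaps 4.82% of its exon bases on the opposite strand. Of the summed TPM of this pair, Slc25a23 made up 30.3%, 6.26% and 32.7% in KO and 99.7%, 100% and 48.4% in WT.

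Carriers of di- and tricarboxylates included 3 tested members, 1 higher and 2 lower in KO. Slc25a1 (chromosome 16, 17925223 to 17928219), the citrate carrier, was at 44.8, 48.9 and 48.1 CPM in KO and 184, 49.3 and 62.3 CPM in WT. KO libraries were tightly grouped, with a coefficient of variation of 4.60%, and WT libraries were not, with 75.4%. In CPM WT library 2 lay just above KO library 2. By TPM WT library 2 lay below every KO library, at 56.9 against 61.2, 67.6 and 67.0, so the genotypes overlapped on that measure. The log2 fold change came to -1.06 (SE 0.69) and -0.23 without WT library 1, where the genotypes overlapped. Slc25a11 was at 206, 255 and 311 CPM in KO and 316, 470 and 175 CPM in WT, with a log2 fold change of -0.32 and a standard error of 0.40. Its sign turned without WT library 2, at 0.095. Slc25a10, the dicarboxylate carrier, was at 20.96, 61.0 and 24.6 CPM in KO and 40.1, 0.0795 and 31.8 CPM in WT. Outside WT library 2 its WT values lay within the KO range.

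Enzymes that feed or use the malate-aspartate and citrate shuttles were 4 higher and 8 lower of 12 tested, with a median log2 fold change of -0.47, and edgeR called none. Mdh1, the cytosolic malate dehydrogenase, was at 207, 284 and 212 CPM in KO and 515, 749 and 302 CPM in WT, without overlap. The log2 fold change of Mdh1 came to -1.16 (SE 0.36). Aco1, the cytosolic aconitase that doubles as an iron sensor, was at 66.9, 127 and 28.7 CPM in KO and 1.85, 16.0 and 2.00 CPM in WT, also without overlap. The log2 fold change of Aco1 came to 3.49 (SE 1.30). The carrier pair of the same shuttle was read unevenly. Slc25a12, aralar, had 1, 575 and 528 reads in KO and 1102, 0 and 111 reads in WT. Slc25a13, citrin, had 3, 607 and 611 reads in KO and 0, 0 and 400 reads in WT. Both carriers were read in KO libraries 2 and 3 and in WT library 3, at 11.9 and 7.54 TPM in KO and 2.14 TPM in WT for Slc25a12, and at 24.3 and 16.9 TPM in KO and 14.9 TPM in WT for Slc25a13. In those libraries citrin was the higher of the pair.

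Among amino acid and carnitine carriers, 5 tested members were higher and 2 lower in KO. Slc25a38 (chromosome 9, 120110374 to 120124504), which supplies glycine to haem synthesis, was the only member with at least 10 reads in all 6 libraries. It was at 22.0, 35.0 and 31.0 CPM in KO and 93.7, 44.9 and 53.9 CPM in WT, with means of 29.3 ± 6.68 and 64.2 ± 26.0 CPM (SD, n = 3 each). The genotypes did not overlap under any scaling tried. Its log2 fold change came to -1.13 (SE 0.78), and -0.74 without WT library 1. Slc25a22, a glutamate carrier, had 1, 882 and 1521 reads in KO and 922, 62 and 0 reads in WT. The presence of reads did not follow genotype here. Slc25a20, which carries acylcarnitines for fatty acid oxidation, had 14, 785 and 633 reads in KO and 1, 0 and 237 in WT. Slc25a15, the ornithine carrier of the urea cycle, had 74, 468 and 93 reads in KO and 1 read or none in WT libraries 1 and 2, with 113 in WT library 3. Slc25a44, which carries branched-chain amino acids, was at 4.45, 49.2 and 49.2 CPM in KO and 0.353, 31.0 and 66.6 CPM in WT. Library 1 was the lowest in both genotypes for Slc25a44.

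Of 7 genes of the carnitine shuttle 5 were tested, 4 higher and 1 lower, with a median of 0.23, and edgeR called none. Slc22a5, the carnitine transporter of the cell surface, had 459, 221 and 883 reads in KO and 2, 0 and 20 reads in WT. Its genotypes did not overlap, and its log2 fold change came to 5.75 (SE 2.30), a size left uncertain by the few WT reads. Cpt1a, which makes acylcarnitines at the outer membrane, was at 18.4, 46.2 and 45.5 CPM in KO and 143, 25.5 and 44.4 CPM in WT. Its log2 fold change was -0.95, and without WT library 1 it was 0.083.

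All 9 carriers of cofactors and other nucleotides were tested, 5 higher and 4 lower in KO. Slc25a17, which serves peroxisomes rather than mitochondria, was the highest of them, at 119, 50.3 and 62.0 TPM in KO and 124, 66.0 and 78.1 TPM in WT. Its genotypes overlapped. The pyrimidine nucleotide carriers Slc25a36 and Slc25a33 did not keep a fixed ratio. Slc25a36 made up 20.5%, 41.97% and 76.6% of the pair's TPM in KO and 64.8%, 93.4% and 38.4% in WT. Slc25a33 had 497, 208 and 97 reads in KO and 26, 1 and 351 reads in WT. The share in WT library 2 thus rests on 72 reads of Slc25a36 and 1 of Slc25a33. Gm13068 overlaps 14.9% of the exon bases of Slc25a33 on the opposite strand, so its reads are uncertain. Slc25a51, which brings NAD into mitochondria, had 407, 931 and 957 reads in KO and 8, 2 and 780 reads in WT. Slc25a26, the S-adenosylmethionine carrier, had 592, 101 and 380 reads in KO and 2, 0 and 239 reads in WT. For both carriers WT library 3 lay within the KO range in CPM, while WT libraries 1 and 2 had next to no reads. Slc25a42, a coenzyme A carrier, had 0, 256 and 384 reads in KO and 158, 1 and 0 in WT. Slc25a16, also linked to coenzyme A, had 381, 1 and 346 reads in KO and 30, 1 and 556 in WT.

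Of the carriers of metals and glutathione all but Slc25a40 reached 10 reads in every library, with 3 tested members higher and 1 lower in KO. Slc25a37 (mitoferrin 1), the iron importer best known from red cell precursors, was at 132, 39.3 and 42.01 CPM in KO and 36.9, 73.5 and 41.9 CPM in WT. KO library 1 stood far above the other KO libraries. Red cell markers were also highest there, with a summed level of 227, 65.2 and 0.243 CPM in KO and 1.23, 0.159 and 0.238 CPM in WT over 6 genes. Alas2, the haem synthesis enzyme of red cell precursors, had 127, 1 and 0 reads in KO and 0, 1 and 0 in WT. The part of these markers in the level of Slc25a37 was not tested. Slc25a28 (mitoferrin 2), the form of other cells, was at 49.4, 14.7 and 27.4 CPM in KO and 25.5, 25.3 and 42.2 CPM in WT. By TPM mitoferrin 1 made up 62.4%, 62.4% and 48.9% of the pair in KO and 47.4%, 64.3% and 38.2% in WT, and the genotypes overlapped. Slc25a39 was at 94.2, 118 and 98.1 CPM in KO and 64.9, 134 and 100.3 CPM in WT. Its log2 fold change of 0.054, with a standard error of 0.47, turned to -0.17 without WT library 1, -0.035 without KO library 2 and -0.044 in limma-voom. Its relative Slc25a40 had 219, 321 and 102 reads in KO and 0, 96 and 16 reads in WT, and Slc25a39 made up 95.6% to 98.8% of that pair's TPM in KO and 99.1% to 100% in WT.

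Genes of iron-sulfur cluster and haem synthesis, which use the iron and glycine that these carriers import, were 7 higher and 13 lower of 20 tested, with a median of -0.43, and edgeR called none. Iscu, the scaffold on which clusters form, was at 94.8, 55.2 and 81.2 CPM in KO and 163, 165 and 101 CPM in WT, without overlap. Nfs1, the cysteine desulfurase that provides the sulfur, was at 0.220, 40.0 and 25.8 CPM in KO and 305, 107 and 54.6 CPM in WT, also without overlap.

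Of the relatives of the uncoupling proteins, Slc25a14 (UCP5) was the only tested member. It had 1, 346 and 338 reads in KO and 0, 0 and 166 reads in WT. KO libraries 2 and 3 and WT library 3 held nearly all of them. Among the remaining carriers Slc25a46, an outer membrane protein that shapes mitochondria, was at 72.7, 31.6 and 35.4 CPM in KO and 284, 0.556 and 65.7 CPM in WT. The WT values enclosed the KO values on both sides. Slc25a45 was at 256, 562 and 353 CPM in KO and 320, 623 and 378 CPM in WT, with a log2 fold change of -0.17 and a standard error of 0.38. Its sign turned to 0.19 without WT library 2 and to 0.055 without KO library 1. Slc25a53 had 30, 483 and 177 reads in KO and 1083, 1 and 6 reads in WT. Slc25a35 had 0, 236 and 96 reads in KO and 0, 1 and 51 in WT, and 31.3% of its exon bases overlap Rangrf on the opposite strand, so its reads are uncertain.

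WT library 1 was the highest of the WT libraries for several carriers, among them Slc25a4, Slc25a5, Slc25a1, Slc25a38, Slc25a23, Slc25a46, Slc25a53 and Slc25a12. It also had the highest sums for markers of some other cell types. Endothelial markers summed to 27.2 to 61.6 CPM in KO, against 180, 28.5 and 52.2 CPM in WT libraries 1 to 3, with Cldn5 and Ly6c1 at 0 in all. Markers of border-associated macrophages summed to 0.356 to 10.2 CPM in KO, against 95.8, 0.437 and 29.0 CPM in WT. Mrc1 made up 95.4 CPM of the sum in WT library 1, while Lyve1 had at most 1 read in any library. Oligodendrocyte markers summed to 109 to 215 CPM in KO, against 379, 47.4 and 186 CPM in WT, and of these Mobp had no read in any library. The part of such cells in the carriers' levels was not tested.

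Genes that work beside the carriers without a numbered Slc25a symbol gave no call either. Of 15 carrier relatives and metabolite channels 13 were tested, 4 higher and 9 lower, with a median of -0.23. Mpc2, a subunit of the mitochondrial pyruvate carrier, was at 51.0, 39.9 and 58.4 CPM in KO and 62.6, 129 and 54.9 CPM in WT, with overlap. Sfxn5, a sideroflexin, was at 34.2, 8.89 and 0.383 CPM in KO and at 0.264, 0.675 and 3.29 CPM in WT. Its genotypes overlapped, and its log2 fold change came to 3.35 (SE 2.14). Genes of the import route that inserts carriers into the inner membrane were 6 higher and 9 lower of 15 tested, with a median of -0.80. Timm22, the channel subunit that inserts them, was at 23.3, 14.8 and 22.3 CPM in KO and 39.1, 46.3 and 57.6 CPM in WT. Its genotypes did not overlap, and its log2 fold change came to -1.24 (SE 0.92). Timm13, a chaperone of the space between the membranes, was at 44.1, 54.2 and 58.3 CPM in KO and 97.4, 134 and 58.1 CPM in WT. Genes of the mitochondrial calcium uniporter were 3 higher and 5 lower of 8 tested, with a median of -1.29. Micu2, its calcium sensor, was at 51.9, 80.1 and 16.3 CPM in KO and 167, 99.2 and 105 CPM in WT, without overlap. Smdt1, its small regulatory subunit, was at 54.2, 30.7 and 49.7 CPM in KO and 213, 54.5 and 56.6 CPM in WT, where the gap between KO library 1 and WT library 2 was narrow.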

How the data were processed

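The authors deposited whole-number raw counts, 1 per gene symbol in each of 6 samples. STAR 2.5.2b, featureCounts 1.5.1 (with Subread), CASAVA 1.8.2, limma 3.28.21 and build GRCm38 appear in the submitters' processing notes, without their roles. Per the labels' protocols, cDNA from a SMARTer kit was amplified by PCR and read as single reads of 50 cycles. Neither the annotation nor the strand setting is given in the sources used here, and the kit does not mark strand. Of 48679 entries 92 spike-ins were left out.

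Counts were fitted across all genes in R 4.3.3 with edgeR 4.0.16 (filterByExpr, minimum count 10, minimum total 15, TMM), by its quasi-likelihood F test on genotype alone, 2-sided, with Benjamini-Hochberg adjustment over 10394 genes and a threshold of 0.05. Fold changes are log2 of KO over WT, with the standard error taken from the F statistic. DESeq2 1.42.0 and limma-voom (limma 3.58.1) were alternatives. TPM used exon lengths of GENCODE M21, which 97.2% of tested genes had.

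The carriers and gene lists were chosen with earlier results of these data known. Fold changes are given for carriers at an unadjusted p under 0.05, without overlap of the genotypes or among the 6 with the highest TPM. Other carriers are given by level. Of each list the 2 tested genes with the smallest p are named, some of them with a fold change. Dcaf13 was chosen after its values were seen. A few genes are not reported here, in the text or the figures, and remain in the counts.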

Additional observations from a re-analysis of the deposited data

How the results depend on the processing

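Of the carriers, DESeq2 called 1 where edgeR called 0, Slc25a32 (log2 fold change -11.82, adjusted p = 8.43e-08), and no other setting called any. Carriers at an unadjusted p under 0.05 numbered 1 in the reported fit (2.84% of all genes), 2 with RLE factors (2.95%), with limma-voom (6.38%) and without a filter (7.56%), 3 with DESeq2 (6.02%), and 1 to 9 when a library was left out (2.37% to 10.5%). The 9 arose without WT library 3, which left the WT libraries with few genes read, and 8 of them were higher in KO. The same omission gave 18 carriers without overlap, against 12.9% of all genes lower and 16.6% higher. Leaving out each library gave 6 to 18, with 7.57% to 12.9% of all genes lower and 9.68% to 16.6% higher. The reported count was 6, with 5.19% of all genes lower and 5.97% higher. Fewer libraries in a genotype make separation easier for every gene, so these counts do not compare directly. Other scalings gave 5 or 6, with 4.51% to 5.38% of all genes lower and 5.58% to 6.47% higher. This check was added after the data were seen. The median log2 fold change of all genes was -0.029 in the reported fit and 0.092 with upper-quartile scaling. With the libraries with the most genes read, 28 carriers reached 10 reads in each, against 15 over all libraries and in those with the fewest genes read. The sign of the log2 fold change of Slc25a39 turned in limma-voom (-0.044). When libraries were left out it ran from -0.17 to 0.35 for Slc25a39, -0.51 to 0.19 for Slc25a45, -0.60 to 0.095 for Slc25a11 and -1.32 to 0.083 for Cpt1a. The cause was not tested. The correlation of deviations was 0.014, -0.003 and 0.033 for same-numbered libraries, and -0.037 to 0.014 for the other pairs of KO and WT libraries. Whether same-numbered libraries shared a preparation was not tested. With the number as a replicate block, 0 carriers and 0 of all genes were called. In that fit 1 carrier and 1.65% of all genes were at an unadjusted p under 0.05. Counts below about 10 reads limit what can be said of 22 carriers, and 10 further carriers reached 10 reads in no library.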
